A study of Sus scrofa with 12 samples.

Results

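The liver transcriptome was compared between pigs with a high and pigs with a low stress response that all carried the label of low aggressiveness. The rule took every array with that group label, which gave 6 of the 12 arrays of the series: 3 animals with a high stress response and 3 with a low one. All animals were adult German Landrace pigs, no drug or genotype is named in the labels, and each group of 3 held 1 female (animal 1) and 2 males (animals 2 and 3). The other 6 arrays came from highly aggressive pigs, again 3 with a high and 3 with a low stress response and 1 female in each group. The labels sort the pigs by these traits but do not say how either was scored, how old the pigs were or whether any were related. The groups are therefore natural classes of animals and not treatments. Total RNA of each liver was labelled and hybridised to the Affymetrix porcine array, on which a probe set is a group of short probes for 1 transcript and its signal is a linear intensity. The comparison asks which liver transcripts differ with the stress response when aggressiveness is low.

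The stress response of mammals runs through the hypothalamus, the pituitary and the adrenal gland, which releases cortisol, and through the sympathetic nerves, which release catecholamines. The liver is a main target of both. Cortisol binds the glucocorticoid receptor (NR3C1) and switches on genes of glucose output, amino acid breakdown and its own feedback, while the liver makes the plasma carrier of cortisol, corticosteroid-binding globulin (SERPINA6). The liver also secretes most plasma proteins through the endoplasmic reticulum, whose chaperones are induced as a set when unfolded protein accumulates.

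On most quality measures the arrays were alike, with 1 animal apart and others at the edge of single control ratios. The mean signal after trimming the extreme 2% was 500.2 on each of the 6 arrays, and the median signal lay between 93.3 and 102 on 5 of them. The array of high-stress animal 3 had a median of 114, held the highest of the 6 values for 27.3% of the 15999 probe sets tested and was at one or the other extreme for 42.0% of them, against 29.6% to 34.8% for the other animals. The correlation of log2 signals was 0.959 to 0.965 between low-stress animals, 0.955 to 0.962 between high-stress animals and 0.954 to 0.971 between the groups. The median signal and 4 measures of the ratio between 3′ and 5′ control probe sets, used as measures of RNA integrity, did not separate the groups (exact permutation tests, two-sided, p = 0.4 to 1, where 3 against 3 animals can give no less than 0.1). The high-stress female had the lowest log2 3′ to 5′ ratio of actin, 4.49 against 4.94 to 5.44 in the other 5 animals, while her ratios for EF1A and GAPDH lay inside their range. Low-stress animal 3 had the highest ratio of GAPDH, 1.01 against 0.70 to 0.82 in the other 5 animals. It also had the highest mean of the ratios, 2.34 against 1.99 to 2.28. Single animals moved many of the list medians below, and beside most of these stands the value without that animal, the number of settings that turned the sign or the range over the 21 settings computed, which include leaving out each animal and other scalings.

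No probe set passed the test. limma, fitted to log2(signal + 16) of all 12 arrays as 4 groups with sex as a term, gave a smallest Benjamini-Hochberg adjusted p of 0.119, so that 0 of 15999 probe sets (0.0%) were below 0.05. Below an unadjusted p of 0.01 lay 155 probe sets, where 160 would lie there if all p-values were spread evenly, and below 0.05 lay 819, where 800 would. Of the 155, 106 had higher signals at high stress response (0.663% of those tested) and 49 lower (0.306%). That split depended on the scaling and on 1 animal: the share of higher probe sets was 68.4% as deposited, 54.4% after quantile normalization, 38.7% after centring each array on its median and 43.7% without high-stress animal 3. The median log2 fold change of all probe sets was 0.03, and -0.05 after median centring. The genes below are therefore described by their signals, and the counts of list members are read against the same counts over all 5810 genes with 1 probe set each: 2.89% of these were higher and 1.72% lower at an unadjusted p under 0.05. Signals of the groups did not overlap, every high-stress animal lying above every low-stress animal, for 6.73% of the 5810 genes, and the reverse order held for 4.61%. A log2 fold change above 0 was found for 56.6% of the 5810 genes.

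Among the 10 higher genes with the smallest p were genes of the cytoskeleton, extracellular matrix and growth factor binding. TUBA1B, an alpha-tubulin of microtubules, was the brightest, with signals of 6353, 5780 and 5399 in the low-stress animals against 9778, 8619 and 9863 in the high-stress animals, a log2 fold change of 0.69 ± 0.15 (SE). ITIH5, of the family of inter-alpha-trypsin inhibitor heavy chains that bind hyaluronan, had signals of 296, 277 and 295 against 481, 477 and 501 (0.72 ± 0.16). In both genes the spread within each group was small and the groups lay well apart. IGFBP6, a binding protein with a preference for insulin-like growth factor 2, had signals of 49.4, 94.6 and 27.0 against 230, 142 and 161, a 2.81-fold difference (log2 fold change 1.49 ± 0.32). CDA, the cytidine deaminase of pyrimidine salvage, had signals of 82.3, 82.9 and 52.5 against 146, 171 and 144 (0.96 ± 0.20). NCK2, an adaptor between receptor tyrosine kinases and actin, had 80.3, 82.3 and 85.7 against 152, 136 and 132 (0.66 ± 0.17). A dimmer second probe set of NCK2 gave -0.29, so the gene's direction rests on the brighter one. The same caution applies to CLASRP, a partner of a splicing factor kinase, whose brightest probe set gave 0.70 ± 0.15 and whose other probe sets gave -0.70 and -0.51. SPRP had signals of 48.1, 58.2 and 59.1 against 99.9, 180 and 135 (1.09 ± 0.28).

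For GNG3, a G protein gamma subunit, the 3 low-stress animals averaged 16.6, below the lowest mean signal kept in the test (40.58), and the high-stress animals 70.7. LOC100514340 likewise averaged 29.8 against 118. For such dim probe sets the fold change depends on the constant added before the logarithm; for GNG3 the log2 fold change was 1.46 with 16 and 2.28 with 1. CLSTN3, a calsyntenin cell surface protein, had signals of 36.0, 63.1 and 80.2 against 78.8, 162 and 172. Its groups overlapped because the high-stress female was below low-stress animal 3, and its small p came from a fit that compares animals within sex. The adjusted p of the 10 higher genes was 0.781 to 0.869 (limma).

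Among the 10 lower genes, the dimmest had the smallest p. PROM1 (prominin 1, CD133), a membrane protein of bile duct and progenitor cells, had signals of 87.0, 61.6 and 83.9 in the low-stress animals against 9.26, 14.4 and 2.67 in the high-stress animals, a log2 fold change of -1.93 ± 0.33 (adjusted p = 0.463). RGS16, which shortens G protein signals and is known from liver for its rhythm with feeding, had 67.0, 77.3 and 78.0 against 7.55, 16.6 and 13.4 (-1.67 ± 0.31). MYL4, a myosin light chain, averaged 96.7 against 26.1. The high-stress means of these 3 genes lay under the lowest mean signal kept in the test, and with a constant of 1 PROM1 gave -3.22 and RGS16 -2.53. In bulk liver, fewer cells of a type and less RNA per cell cannot be told apart.

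The other lower genes had brighter signals. CCDC28A, a coiled-coil protein, had nearly equal signals in the low-stress animals, 1340, 1349 and 1347, against 614, 828 and 592 in the high-stress animals (-0.99 ± 0.23). LOC102164640 had 2553, 2585 and 2286 against 1296, 1318 and 1825 (-0.75 ± 0.18). DDO, the D-aspartate oxidase of peroxisomes, had 563, 1217 and 1061 against 392, 333 and 335 (-1.32 ± 0.34); the low-stress female lay nearest to the high-stress group. ITGAV, the alpha-V integrin that binds vitronectin and activates TGF-beta, had 350, 302 and 439 against 156, 178 and 229 (-0.90 ± 0.21). MXI1, an antagonist of MYC, averaged 254 ± 38.9 (SD, n = 3) against 154 ± 20.3. STN1, of the complex that protects telomeres and helps DNA replication, averaged 271 ± 20.4 against 171 ± 22.9, and its second probe set gave -0.86. FBP2 is taken up with glucose metabolism below. All 10 lower genes had groups that did not overlap, and their adjusted p was 0.463 to 0.871 (limma).

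**Figure D1:**
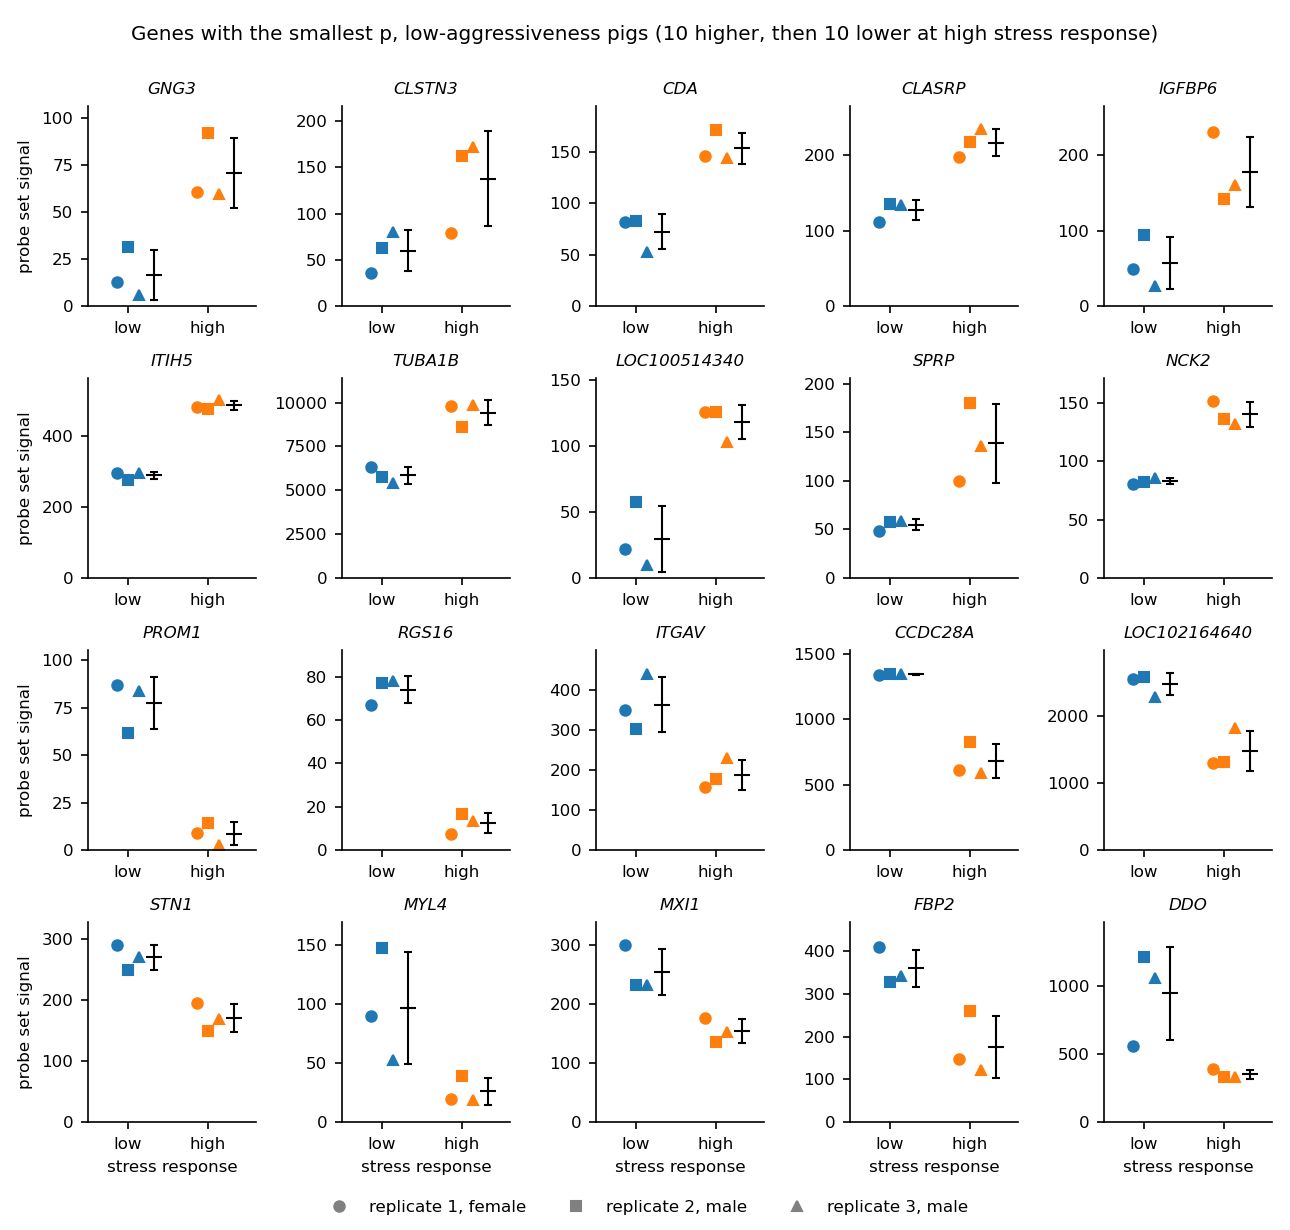
Probe set signal (linear intensity, axis from 0) of each of the 6 low-aggressiveness pigs for the 10 higher and then the 10 lower genes with the smallest p; each point is 1 animal, the symbol gives its replicate and sex, and the bar beside it is the mean ± SD of 3 animals. The groups are apart in 19 of the 20 panels and overlap for CLSTN3, and PROM1, RGS16 and MYL4 have high-stress means under 40.58, the lowest mean signal kept in the test.

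The smallest p of all 15999 probe sets belonged to a second, dim probe set of LITAF, an endosomal protein induced by lipopolysaccharide; it was chosen for mention after its values were seen. That probe set had signals of 86.5, 70.9 and 75.6 against 16.4, 8.05 and 18.6 (log2 fold change -1.64 ± 0.20, adjusted p = 0.119). The gene's brightest probe set had 7417, 9437 and 9183 against 8923, 8830 and 13454, a log2 fold change of 0.24, with overlapping groups. The 2 remaining probe sets of LITAF gave 0.38 and 0.47, so the lower signal was found on 1 of the gene's 4 probe sets.

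Genes for chaperones of the endoplasmic reticulum and the unfolded protein response were mostly higher at high stress response. Of 19 measured genes of the 30 listed, 18 had a log2 fold change above 0, with a median of 0.27 (0.04 over the 5810 genes), and 6 were higher at an unadjusted p under 0.05. In 8 of the 19 (42.1%) every high-stress animal was above every low-stress animal, where 6.73% of all genes were. CRELD2, a disulfide isomerase-like protein that the same compartment secretes, had signals of 1293, 1124 and 1037 in the low-stress animals against 3202, 1720 and 1896 in the high-stress animals (0.92 ± 0.28). HYOU1, the large chaperone that exchanges nucleotide on BiP, had 2136, 1596 and 1434 against 3519, 2352 and 2332 (0.66 ± 0.20). In both genes the high-stress female was the highest of the 6 animals.

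Other members of the list also had groups apart. MANF, a neurotrophic factor retained in the endoplasmic reticulum, had 7831, 6680 and 6879 against 14442, 8940 and 10185 (0.62 ± 0.20). The co-chaperones DNAJB11 and DNAJC3 gave 0.51 ± 0.19 and 0.45 ± 0.16, and the calcium-binding lectin chaperone calreticulin (CALR) gave 0.45 ± 0.17. HSPA5 (BiP), the central chaperone that senses unfolded protein, had 23824, 20245 and 22447 against 28131, 23211 and 31408 (0.31 ± 0.17); its groups overlapped, since high-stress animal 2 lay below low-stress animal 1, and the value was 0.18 without high-stress animal 3. The transcription factors of the response had overlapping groups: ATF4 gave 0.23 ± 0.15, DDIT3 0.37 ± 0.27 (0.10 without high-stress animal 3) and the XBP1 transcript 0.05 ± 0.16. PPP1R15A, which restarts translation after stress, was the member below 0 (-0.26 ± 0.51). No member passed the adjusted test. The list's median was 0.18 without high-stress animal 3, and it was above 0 in each of the 21 settings computed, from 0.18 to 0.34. The list score averages each member's log2 signal after subtracting that gene's mean over the 6 low-aggressiveness arrays. It was -0.13, -0.17 and -0.17 in the low-stress animals and 0.32, 0.01 and 0.14 in the high-stress animals. The list was drawn up with earlier results of these data known, so its direction is a description.

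**Figure D2:**
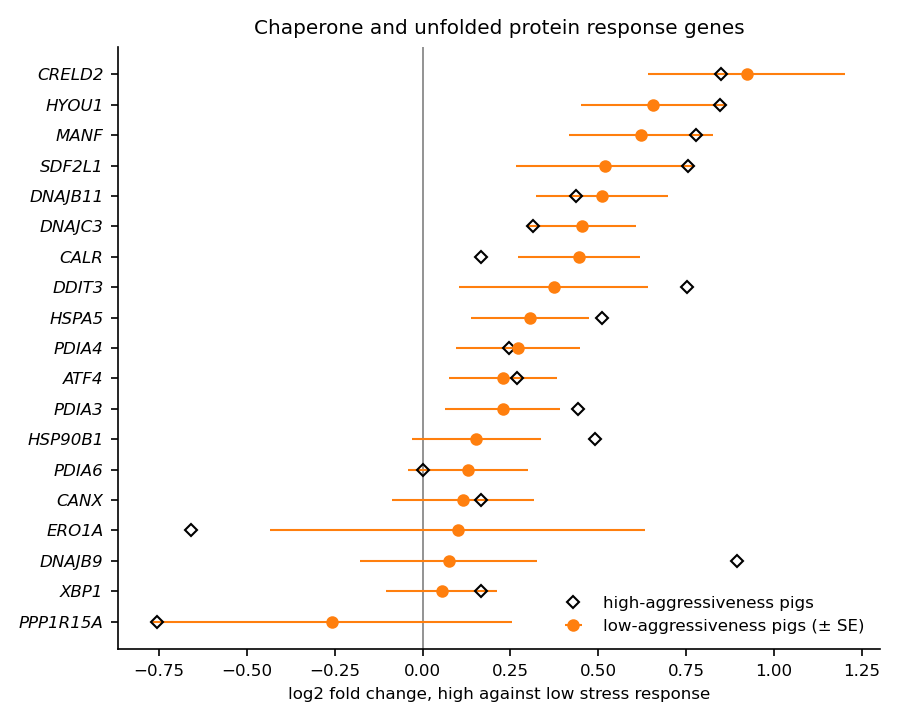
Log2 fold change at high against low stress response for the 19 measured genes for chaperones and the unfolded protein response; filled circles with bars are the low-aggressiveness pigs (± SE from limma), open diamonds the highly aggressive pigs. In the low-aggressiveness pigs 18 of the 19 circles lie above 0, with CRELD2 and HYOU1 at the top and PPP1R15A below 0.

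The machinery that moves proteins into and out of the endoplasmic reticulum was also mostly above 0. Of 43 measured genes 34 were above 0, and the median was 0.18 (0.17 without high-stress animal 3, 0.09 to 0.20 over the 21 settings). The groups did not overlap for 8 higher and 2 lower genes (18.6% and 4.65% of the list). Over all genes the shares were 6.73% and 4.61%, so the lower share was near that of all genes. LRRC59, a ribosome-binding membrane protein, had signals of 2359, 1645 and 2175 against 3905, 3277 and 3310 (0.77 ± 0.22). SRPRB, a subunit of the receptor for the signal recognition particle, had 1274, 1092 and 831 against 1733, 1662 and 1533 (0.64 ± 0.22). KDELR1, which returns escaped chaperones, gave 0.40 ± 0.16. The coat components were divided: SEC23B (0.42) and COPZ1 (0.37) were among the higher genes without overlap, SAR1B (-0.30) and SEC23A (-0.19, and -0.03 without high-stress animal 3) among the lower. CKAP4, a structural protein of rough endoplasmic reticulum that is on neither list and was noticed after its values were seen, had 879 to 1293 in the low-stress animals against 1782 to 2557 on its brightest probe set (1.11), and its other probe sets gave 1.42 and 0.71. The heat shock proteins of cytosol and mitochondria did not show this pattern in their counts: 11 of 19 were above 0, the median was 0.02 with a sign that turned in 4 of the settings, and the gene with the smallest p, the heat shock transcription factor HSF1, had 653, 937 and 720 against 1060, 852 and 879.

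Of 11 measured genes of receptors and cortisol handling, 2 (18.2%) had groups apart, SERPINA6 and AKR1C1. Both were lower at high stress response, where 4.61% of all genes were lower without overlap. SERPINA6, the corticosteroid-binding globulin that carries cortisol in plasma, had signals of 5320, 4955 and 3876 in the low-stress animals against 2318, 1346 and 1633 in the high-stress animals, a 2.70-fold lower level (log2 fold change -1.43 ± 0.43, unadjusted p = 0.00750, limma adjusted p = 0.941). The lowest low-stress animal was above the highest high-stress animal, and without high-stress animal 3 the value was -1.40. AKR1C1, an aldo-keto reductase of steroids, averaged 262 and 181 and also did not overlap (-0.53 ± 0.27). The receptor NR3C1 had 141, 189 and 153 against 200, 143 and 195, fully overlapping groups (0.14 ± 0.27). HSD11B1, which regenerates active cortisol inside hepatocytes and was among the bright genes of the array, had 36226, 30987 and 27582 against 29096, 31253 and 29052 (-0.08 ± 0.19). HSD11B2, which inactivates cortisol, gave -0.25 ± 0.18, and the adrenergic receptor ADRB1 -0.58 ± 0.41 (-0.93 without high-stress animal 3). Over the whole list of receptors and cortisol handling 4 of 11 genes were above 0 and the median was -0.09, which became -0.27 without the high-stress female and -0.04 without high-stress animal 3.

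Genes known to be induced by glucocorticoids were divided. Of 26 measured genes 17 were above 0 with a median of 0.14, and without high-stress animal 3 the count was 13 and the median -0.02. FKBP5, the immunophilin that feeds back on the glucocorticoid receptor, had 122, 221 and 148 against 297, 372 and 807 (1.41 ± 0.54, unadjusted p = 0.0257). Its groups did not overlap, the highest value was that of high-stress animal 3, and without it the log2 fold change was 0.98; a second, dim probe set gave 0.79. IGFBP1, a secreted binding protein that cortisol raises and insulin lowers, had 1320, 7296 and 3179 against 5704, 5718 and 12062 (1.22 ± 0.40), with 1 low-stress animal inside the high-stress range. TSC22D3 (GILZ), an anti-inflammatory target of the receptor, lay in the other direction without overlap, 3049, 2266 and 2732 against 2235, 1834 and 1959 (-0.41 ± 0.27). FKBP5 and TSC22D3 were the members with groups apart, 3.85% of the list in each direction. Over all genes the shares were 6.73% higher and 4.61% lower. In the highly aggressive pigs FKBP5 gave 0.07 and TSC22D3 -0.44. The clock gene PER1, with a glucocorticoid response element of its own, averaged 1036 ± 316 (SD, n = 3) against 1326 ± 287. DUSP1, a phosphatase that ends MAP kinase signals, gave 0.02 ± 0.21.

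Glucose output and amino acid breakdown differed at single genes. FBP2, the muscle-type fructose bisphosphatase, had signals of 410, 329 and 342 against 147, 259 and 123 (-1.03 ± 0.26, unadjusted p = 0.00279). PCK2, the mitochondrial form of the enzyme that makes phosphoenolpyruvate, was the other gene of the list with groups apart, averaging 5014 against 3667 (-0.51 ± 0.34, and -0.12 without high-stress animal 3). These 2 lower genes were 15.4% of the list, where 4.61% of all genes were lower without overlap. The cytosolic form PCK1 had overlapping groups, with 24455, 23020 and 22261 against 24155, 22288 and 25514 (0.04 ± 0.15), and the liver-type FBP1 gave 0.10 ± 0.16. Of 13 genes in the list 7 were above 0, with a median of 0.04 (-0.04 to 0.08 over the settings). In the list of urea cycle and amino acid catabolism 9 of 20 were above 0 (median -0.08, and 0.03 without low-stress animal 3). The 3 genes without overlap (15%, against 4.61% of all genes) were lower: DDO, GPT (alanine aminotransferase, -0.64 ± 0.25) and the urea cycle enzyme OTC (-0.36 ± 0.22, and -0.21 without high-stress animal 3). TAT, the tyrosine aminotransferase that is a classic target of cortisol, had 3054, 10408 and 14016 against 3802, 9162 and 10043. In each group the female was the lowest, and the groups overlapped.

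Lipid and bile acid genes were lower as counts, and much of that lay in high-stress animal 3. For bile acids, the list of synthesis and transport had 6 measured genes, each below 0 (median -0.60); without that animal 4 were below 0 and the median was -0.13. ABCB11, the pump that exports bile salts, was the exception to this dependence: it had 353, 259 and 281 against 159, 200 and 198 (-0.63 ± 0.29), and -0.67 without that animal. SLC10A1, the uptake transporter of bile acids, had 16750, 14265 and 15904 against 12922, 13551 and 6720 (-0.56 ± 0.42, and -0.17 without that animal). Genes that make fatty acids and triglycerides were below 0 in 16 of 18 cases (median -0.25), and in 12 without high-stress animal 3 (-0.09); the median was -0.44 without high-stress animal 2. DGAT2, which makes triglyceride from diacylglycerol, had 6103, 7524 and 4770 against 2240, 4949 and 1499 (-1.23 ± 0.52, and -0.72 without that animal). FASN, the fatty acid synthase, was the gene of this list with separate groups, and it was higher: 190, 405 and 416 against 560, 584 and 580 (0.82 ± 0.41); other probe sets of FASN gave 1.00, -0.29 and -0.18.

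Cholesterol synthesis had 9 of 13 genes below 0 and a median of -0.19, and in no gene of the list were the groups apart. That median was -0.11 without high-stress animal 3, -0.07 without the high-stress female and -0.06 without low-stress animal 3. FDFT1 (squalene synthase), the enzyme that commits the pathway to sterols, had 4698, 4886 and 4800 against 2679, 5499 and 3234 (-0.40 ± 0.24), so that high-stress animal 2 was the highest of the 6. HSD17B7 lay in the other direction through the high-stress female, with 597, 1126 and 1687 against 4784, 1941 and 1054 (1.02 ± 0.54 with all animals, 0.05 in the males). Fatty acid oxidation had 10 of 26 genes above 0 (median -0.08, from -0.24 to 0.06 over the settings). Its regulator PPARA, a fatty acid receptor, had 112, 140 and 104 against 38.9, 80.6 and 44.9 (-0.97 ± 0.35), and ACAA2, the last enzyme of the mitochondrial cycle, had 15684, 17874 and 12744 against 11739, 10831 and 6350 (-0.71 ± 0.28, and -0.47 without high-stress animal 3). Neither gene's groups overlapped, and CPT1A, the gate of fatty acid entry into mitochondria, gave 0.24 ± 0.25.

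Enzymes of drug and steroid clearance had groups apart about as often as all genes in the lower direction. In the lists of drug oxidation and of conjugation 5.56% and 7.14% of genes were lower without overlap, against 4.61% of all genes. In neither list was a gene higher without overlap, where 6.73% of all genes were. FMO5, a flavin monooxygenase, had 783, 814 and 1274 against 325, 646 and 663 (-0.83 ± 0.29), and CYP2A19 gave -1.01 ± 0.44 with overlapping groups, and -0.36 without high-stress animal 3. The drug oxidation list as a whole had 8 of 18 genes above 0 and a median of -0.03 (-0.27 to 0.03 over the settings). Pig cytochrome P450 genes of 1 subfamily are close copies, so their probe sets may share signal. EPHX1, the microsomal epoxide hydrolase, had 15281, 14618 and 11851 against 11110, 12169 and 6516 (-0.53 ± 0.28, and -0.22 without high-stress animal 3), in a list of conjugation enzymes with 4 of 14 above 0 and a median of -0.16. The list's median was -0.03 without high-stress animal 3 and -0.28 without the high-stress female. In the antioxidant list 11 of 23 genes were above 0 (median -0.01, with a sign that turned in 5 settings). PON3, a lactonase carried on HDL, averaged 10234 ± 3772 (SD, n = 3) against 5565 ± 2213, with groups that overlapped by the values of animal 2 in each group.

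**Figure D3:**
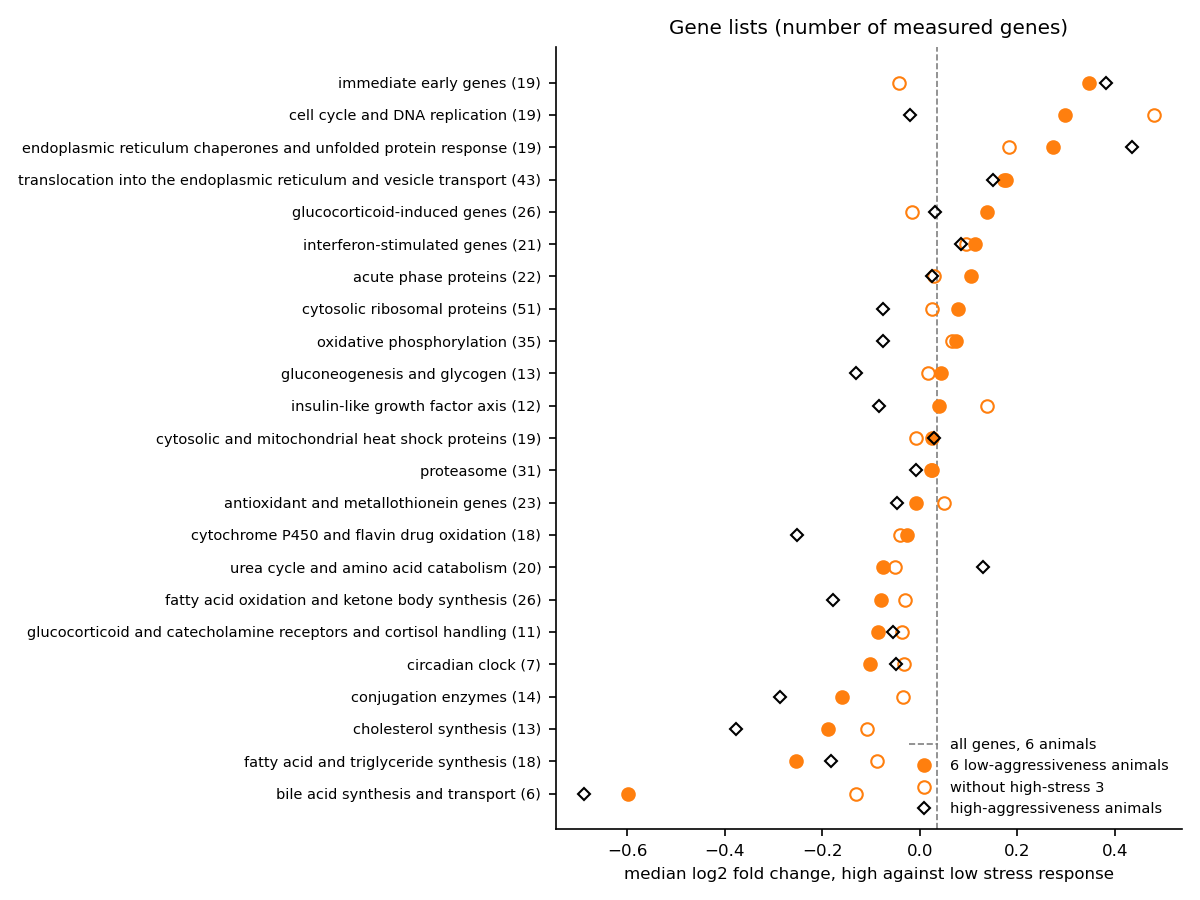
Median log2 fold change at high against low stress response of the 23 lists of genes by process, with the number of measured genes in brackets; filled circles are the 6 low-aggressiveness pigs, open circles the same without high-stress animal 3, diamonds the highly aggressive pigs and the dashed line the median of all 5810 genes. Leaving out that animal moves the immediate early genes from 0.35 to -0.04 and bile acid genes from -0.60 to -0.13, and leaves the chaperone list at 0.18.

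The immediate early genes had the highest median of the 23 lists by process at low aggressiveness, and that value rested on 1 animal. These genes are transcribed within minutes of many kinds of stimulus. All 19 measured genes were above 0 with a median of 0.35, yet none had groups apart, and without high-stress animal 3 9 of 19 were above 0 with a median of -0.04. The list score of that animal was 0.78, against 0.05 and -0.25 in the other high-stress animals and -0.32, -0.38 and 0.12 in the low-stress animals. FOS, a component of the AP-1 factor, had 994, 819 and 2118 against 1426, 1326 and 4319. EGR1 had 524, 902 and 1423 against 2010, 914 and 3954. NR4A2, an orphan receptor with the smallest p of the list, had dim signals of 11.5, 44.7 and 42.2 against 65.8, 76.2 and 39.3. In the highly aggressive pigs, which are other animals, 17 of the 19 genes were above 0 with a median of 0.38. Whether that median also rested on single animals was not tested.

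Among plasma proteins of the acute phase, 2 of 22 genes (9.09%) had groups apart, LBP and APCS, both higher at high stress response. That share was near the 6.73% of all genes. CRP, C-reactive protein, had signals of 11006, 4623 and 17292 against 22490, 15868 and 20564 (1.02 ± 0.39), with low-stress animal 3 inside the high-stress range. LBP, which presents lipopolysaccharide to macrophages, had 2610, 6947 and 8612 against 12075, 9071 and 9440 (0.91 ± 0.48). APCS, the serum amyloid P component, averaged 25347 against 30588 (0.28 ± 0.18), and ITIH4 gave 0.34 ± 0.18 with overlapping groups. SAA2 gave 0.09 ± 0.19, haptoglobin (HP) 0.12 ± 0.20 and C3 -0.01 ± 0.22. HAMP, the iron hormone hepcidin, was spread over the groups, 4161, 1781 and 1446 against 275, 942 and 2081. Its log2 fold change had the greatest size and the widest error of the list (-1.41 ± 0.99), and was -2.26 without high-stress animal 3. In all, 17 of 22 genes were above 0 with a median of 0.11, which became 0.03 without high-stress animal 3. Of 21 interferon-stimulated genes 14 were above 0 with a median of 0.11, which was -0.11 in the males, -0.02 without the low-stress female and 0.34 without low-stress animal 3. ISG15, a ubiquitin-like protein, had 1529, 1532 and 1626 against 3430, 1758 and 3845 (0.86 ± 0.30). The antiviral GTPase MX1 had overlapping groups (0.87 ± 0.56).

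Cell cycle and DNA replication genes were higher, at low signals and most of all in the high-stress female. Of 19 measured genes 15 were above 0, with a median of 0.30, and 5 (26.3%, against 6.73% of all genes) had groups apart in that direction. RAD54L, a motor of homologous recombination, had 17.7, 16.4 and 67.9 against 75.5, 90.7 and 127 (1.31 ± 0.39); the low-stress mean of 34.0 was below the lowest mean signal kept in the test. FEN1, the nuclease that trims Okazaki fragments, was brighter, with 339, 330 and 384 against 682, 456 and 421 (0.52 ± 0.19). The mitotic kinase AURKA had 64.8, 10.0 and 30.2 against 70.2, 69.5 and 74.6, and TOP2A, which untangles chromosomes, had 26.9, 23.5 and 36.2 against 101, 55.2 and 42.7. The replication helicase genes MCM2 (0.02), MCM3 (0.05) and MCM5 (0.19) had differences below their standard errors. The list score was 0.65 in the high-stress female, 0.10 and -0.07 in the high-stress males and -0.35 to -0.14 in the low-stress animals. Its median was 0.13 without the female and 0.48 without high-stress animal 3.

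In the axis of insulin-like growth factors the genes with an unadjusted p under 0.05 were the binding proteins IGFBP6 and IGFBP1 and the insulin receptor. The insulin receptor INSR had 45.7, 70.2 and 59.0 against 77.3, 101 and 103 (0.57 ± 0.24), while its second probe set gave -0.02. IGF1 averaged lower at high stress response with a wide error (-0.71 ± 0.53), the low-stress female being highest at 1635, and IGF2 gave 0.03 ± 0.22. The list had 7 of 12 genes above 0 and a median of 0.04, whose sign turned in 7 settings.

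Housekeeping lists had small shifts. Their medians changed with median centring, which moves the log2 fold change of every gene by the same amount, and with the omission of single animals. Of 51 cytosolic ribosomal protein genes 45 were above 0, with a median of 0.08. In 6 of them (11.8%, against 6.73% of all genes) every high-stress animal was above every low-stress animal, among them RPL3, RPL8 and RPL12. No member had an unadjusted p under 0.05 (limma). The list's median was -0.00 after median centring and 0.03 without high-stress animal 3. The gene with the smallest p, RPL37, was lower (-0.39 ± 0.22). Oxidative phosphorylation had 23 of 35 above 0 with a median of 0.07. That median was -0.01 after median centring, 0.10 after quantile normalization and -0.02 without low-stress animal 3. ATP5G1, a ring subunit of ATP synthase, had 9122, 9445 and 6162 against 12543, 12413 and 10383 (0.53 ± 0.21). The proteasome list was near 0, with 20 of 31 above it, a median of 0.02 and the lid subunit PSMD12 at 0.24 ± 0.19. The clock list had 2 of 7 above 0 (median -0.10, from -0.23 to 0.02 over the settings), and the nuclear receptor RORA had 354, 135 and 298 against 166, 143 and 186.

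Hepatocyte markers were bright in every animal, and markers of other cell types were measured beside them. Signals of ALB were 35648 to 52631 and those of APOA1 45963 to 59167 over the 6 animals. The 14 hepatocyte markers summed to 427418 to 543696 in the low-stress and 472051 to 538792 in the high-stress group. Of the 14, 11 were above 0 with a median of 0.12, which was 0.03 without high-stress animal 3 and 0.21 in the males. Macrophage markers (7 measured) summed to 31095 to 34447 against 29223 to 30479, without overlap, with 5 of 7 below 0 and a median of -0.25. The gene of that list with groups apart was CD5L, a secreted macrophage protein, at 12744 against 9920 on average (-0.34 ± 0.16), and the list's median was -0.05 without high-stress animal 3 and -0.34 without the high-stress female. Stellate cell and fibroblast markers had 8 of 10 above 0 and a median of 0.38, with sums of 8930 to 13691 against 10728 to 18892. Their median was 0.19 with 6 of 10 above 0 without high-stress animal 3, 0.20 without low-stress animal 2 and 0.63 without high-stress animal 2. Actin ACTA2 had 1854, 1343 and 2474 against 4477, 2346 and 2447 and TAGLN 341, 229 and 442 against 760, 456 and 475, while the collagen probe set COL3A1 stayed at 50.1 to 122 in all 6 animals. Cholangiocyte markers summed to 10453 to 15792 against 12565 to 26458, with 5 of 7 above 0 (median 0.13, and 0.03 without high-stress animal 3, -0.04 without low-stress animal 2 and 0.44 without low-stress animal 3); KRT19 was dim in all animals (12.2 to 144) and EPCAM had 172, 131 and 107 against 151, 122 and 159. PROM1 thus was the marker of its list with separate groups. Endothelial (7 measured, median 0.10), neutrophil (6, 0.18) and lymphocyte markers (8, -0.03) had sums that overlapped between the groups and medians whose sign turned in 3, 1 and 3 settings. The 4 erythroid markers were all below 0 (-0.21, from -0.42 to -0.11 over the settings), with sums of 2094 to 2998 against 1696 to 3034. The high-stress female, with the highest scores of the cell cycle and chaperone lists, also had the highest stellate score (0.38) and the lowest actin 3′ to 5′ ratio (4.49, log2); the part of these cells and of RNA quality in those results was not tested.

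**Figure D4:**
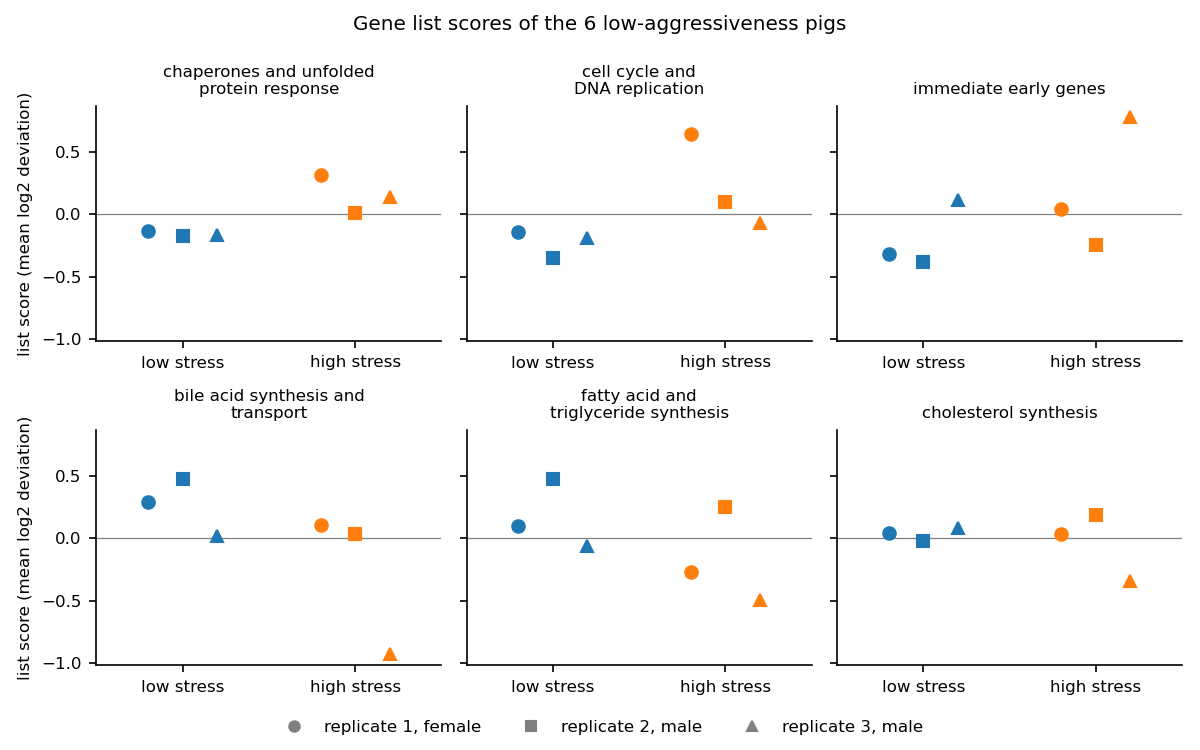
List score of each of the 6 low-aggressiveness pigs for 6 gene lists, averaging each member's log2 signal after subtracting that gene's mean over these 6 arrays. Symbols give replicate and sex. For chaperones every high-stress animal lies above every low-stress animal, the cell cycle score is highest in the high-stress female (0.65), and the immediate early and bile acid scores of high-stress animal 3 (0.78 and -0.93) lie far from the others.

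The same contrast in the 6 highly aggressive pigs, which share no animal with the comparison above, gave 0 adjusted calls as well (smallest adjusted p 0.0783) and 183 probe sets at an unadjusted p under 0.01. Both contrasts come from 1 fit and share each probe set's variance and the sex term. Over the 15999 probe sets the log2 fold changes of the contrasts correlated with Pearson r = 0.15 and Spearman rho = 0.15, across genes that are not independent, and 55.7% had the same sign. Of the 155 probe sets with p under 0.01 at low aggressiveness, 91 (58.7%) had the same sign at high aggressiveness. An unadjusted p under 0.05 there was reached by 20 of them with the same sign and 6 with the opposite sign, where 6.13% of all probe sets reached it in either direction. Because the 155 were chosen by a p that used the same variances, the share over all probe sets is no fair yardstick for them.

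Several genes of the secretory pathway were higher at high stress response at both levels of aggressiveness. CRELD2 gave 0.92 at low and 0.85 at high aggressiveness, HYOU1 0.66 and 0.85, and LRRC59 0.77 and 0.65. The median of the chaperone list was 0.27 and 0.44, and that of translocation and vesicle transport 0.18 and 0.15. RAD54L gave 1.31 and 1.58, and CLSTN3 1.00 and 0.61. FBP2 was lower at both levels (-1.03 and -1.32); in the highly aggressive pigs its signals were 362, 308 and 421 against 103, 158 and 150. CRP gave 1.02 and 2.05, with signals of 5334 to 5874 in the highly aggressive low-stress pigs. For none of these genes did the difference between the levels reach an unadjusted p of 0.05 (0.0909 for CRP and 0.203 or more for the others), which does not show that the effects are equal. Other members of the secretory lists gave unlike values at the 2 levels: KDELR1 gave 0.40 and -0.12 (unadjusted p of the difference 0.047) and DNAJB9, a co-chaperone, 0.07 and 0.89 (0.043). Medians of the same sign at both levels were not particular to the secretory lists. They were -0.60 at low and -0.69 at high aggressiveness for bile acid genes, and 0.35 and 0.38 for immediate early genes. Fatty acid and triglyceride synthesis had -0.25 and -0.18, and cholesterol synthesis -0.19 and -0.38. The cell cycle median was 0.30 at low and -0.02 at high aggressiveness, and that of the stellate markers 0.38 and -0.09. Of 51 cytosolic ribosomal protein genes 45 were above 0 at low and 6 at high aggressiveness (medians 0.08 and -0.08). The differences of these medians were not tested.

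Genes whose stress response effect differed most between the levels were tested in the same fit. No probe set passed (smallest adjusted p 0.567), and 104 of 15999 (0.65%) had an unadjusted p under 0.01. Groups apart at both levels in opposite orders were found for 0.356% of the probe sets. OGDHL, a 2-oxoglutarate dehydrogenase-like enzyme of mitochondria, had 1015, 1367 and 1529 in the low-stress and 219, 198 and 921 in the high-stress pigs of low aggressiveness, and 216, 249 and 412 against 1130, 1174 and 851 in the highly aggressive pigs. The groups were apart at both levels in opposite orders, and the difference of log2 fold changes was -3.68 ± 0.68 (adjusted p = 0.766). Without high-stress animal 3, the highest of the high-stress group, it was -4.37 (adjusted p = 0.0199, limma). RGS16 was lower at low aggressiveness, and at high aggressiveness had 106, 33.1 and 21.2 against 119, 83.4 and 57.0, a difference of -2.38 ± 0.44. Its adjusted p was 0.766, and 0.0335 without animal 1 of the highly aggressive low-stress group. PRKAG3, a regulatory subunit of AMP-activated kinase best known from pig muscle, had the smallest p of the difference (7.09e-05) through the highly aggressive pigs: 128, 129 and 82.5 against 35.7, 33.7 and 23.6 there, and 85.9, 117 and 105 against 105, 158 and 98.3 at low aggressiveness.

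Signalling genes were among the others. GRK5, a kinase that silences G protein-coupled receptors such as the adrenergic ones, had 113, 115 and 74.3 against 180, 155 and 116 at low aggressiveness, and 181, 171 and 166 against 92.8, 69.3 and 105 at high aggressiveness (difference 1.38 ± 0.29). CREB1, the transcription factor of cyclic AMP signals, was dim, with means of 35.4 and 66.3 at low and 80.5 and 35.7 at high aggressiveness (1.77 ± 0.40). IGFBP6 had 157, 157 and 151 against 97.1, 129 and 83.7 in the highly aggressive pigs, the reverse of its order at low aggressiveness (2.03 ± 0.45), and GNG3 gave 1.86 ± 0.42. The difference was negative for STN1 (-0.83 ± 0.21), ITGAV (-1.12 ± 0.29) and PROM1 (-1.74 ± 0.46), whose signals at high aggressiveness were 51.7 to 81.1 against 29.0 to 98.4. Of these 10 genes 6 were also among the 10 higher or 10 lower genes at low aggressiveness; OGDHL, PRKAG3, GRK5 and CREB1 were not.

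**Figure D5:**
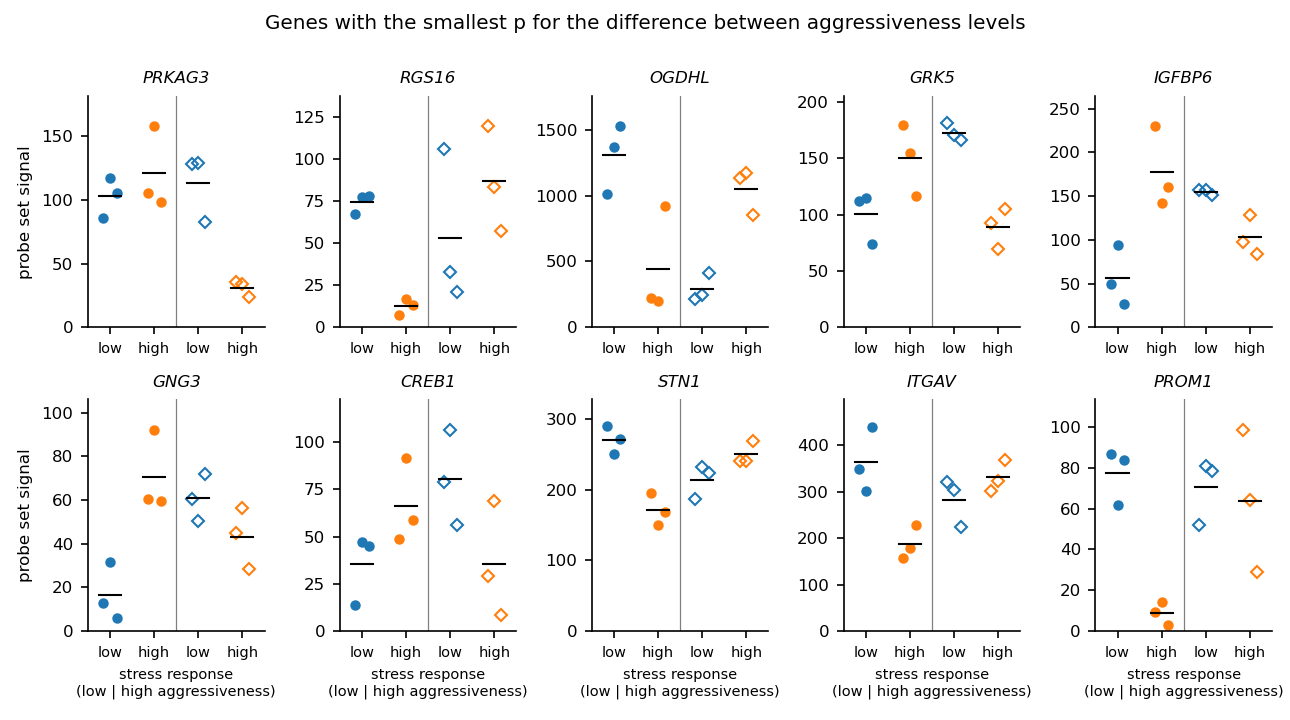
Probe set signal (linear intensity, axis from 0) of all 12 pigs for the 10 genes with the smallest p for the difference of the stress response effect between aggressiveness levels; filled points are low-aggressiveness pigs, open diamonds highly aggressive pigs, blue low and orange high stress response, and lines the means of 3. OGDHL, GRK5, IGFBP6 and STN1 have groups apart in opposite orders at the 2 levels.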

How the data were processed

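RNA of 12 pig livers, 1 Affymetrix porcine array per animal, was used through the deposited probe set signals, a linear intensity that the authors made with GCOS 1.1.1, per the submitters' processing notes. How probes were summarised is not given in the sources used here. The trimmed mean was 500.2 on every array, so the signals had been scaled per array, and they were used as deposited. No calls of detected probe sets were used, and precision is limited by how many arrays there were.

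Groups and sex came from the labels; replicate numbers follow the order of deposit and pair no animals. Of 24123 probe sets, 124 controls and then the 33.3% with the lowest mean were left out, which left 15999. Names came from GEO's annotation of the array (10099 probe sets with 1 symbol, 198 with several, 13826 with none); 9989 of the gene identifiers were found in a RefSeq table of Sscrofa11.1. A gene was counted by its tested probe set with the highest mean (5810 genes).

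The model, fitted with limma 3.58.1 (R 4.3.3) to log2(signal + 16), held 4 groups and sex (7 residual degrees of freedom), and p-values were adjusted by the Benjamini-Hochberg method over the 15999 probe sets. Fold changes are on this scale, which understates those of dim genes, and ± is the SE unless SD is stated. The steps were tested on simulated data. Figures used matplotlib 3.10.9 in Python 3.11.15.

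The animals compared, the 31 gene lists (23 by process, 8 of cell type markers) and the tests were chosen with earlier results of these data known, and lists received no test. Named genes were the 10 higher and 10 lower genes with the smallest p; the members of each process list with an unadjusted p under 0.01 (at most 4) or else the one with the smallest p; marker genes at that p; 14 further genes of stress, lipid and glucose metabolism; and the 5 genes with the smallest p in each direction of the difference between aggressiveness levels. Other list members were given as examples after their values were seen. Alternatives were median centring or quantile normalization, omission of the lowest 50% or of no probe sets, constants of 1 or 64, males only, no sex term, limma's trend, robust and array weight options, the 6 arrays alone, the mean over probe sets, a call by unadjusted p under 0.05 with groups that do not overlap, and each animal left out; the omission together of the 2 arrays that correlated least, by the median, with all other arrays (high-stress animal 3 and its counterpart, animal 3, among the highly aggressive high-stress pigs) was added after the data were seen.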

Additional observations from a re-analysis of the deposited data

Results flagged for a closer look

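For 4 named genes every high-stress animal lay on one side of every low-stress animal at low aggressiveness and on the other side at high aggressiveness. All 4 were among the 5 genes with the smallest p in each direction of the difference between the levels. Their choice thus favoured opposite orders, and the share over all probe sets given below is no yardstick for them. The difference of log2 fold changes (low minus high aggressiveness) was 2.03 for IGFBP6, -0.83 for STN1, -3.68 for OGDHL and 1.38 for GRK5. The difference was tested for each in the limma fit, and none passed (adjusted p 0.766 for OGDHL, 0.814 for IGFBP6 and GRK5, 0.999 for STN1). Over all tested probe sets, 57 of 15999 (0.356%) had groups apart in opposite orders at both levels, and 169 in the same order.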

How the results depend on the processing

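The count of 0 probe sets at an adjusted p under 0.05 within low aggressiveness held in each alternative fit except array weights, which gave 1, the dim LITAF probe set (limma adjusted p = 0.0433). The looser rule of an unadjusted p under 0.05 with groups apart took 599 probe sets. The count at an unadjusted p under 0.01 was 155, and 287 without a filter or 246 with array weights; leaving out single animals gave 148 to 214. For the difference between aggressiveness levels that count was 104, and 243 without a filter. The adjusted count for the difference was 0 to 1 when single animals were left out (RGS16 without animal 1 of the highly aggressive low-stress group, OGDHL without high-stress animal 3), and 2 without the 2 arrays that stood apart, OGDHL (adjusted p = 0.0288) and a probe set with no gene name.

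Values of named genes turned sign in 10 of 1315 alternatives. CLASRP gave -0.17 as the mean over its probe sets. NR3C1 gave -0.025 in males and -0.16 to 0.33 without single animals, TAT -0.51 to 0.16 without single animals, and HSD11B1 0.044 in males and -0.18 to 0.070 without single animals. PCK1 gave -0.037 after median centring, -0.014 without the 2 arrays that stood apart, and -0.0062 to 0.098 without single animals. For list medians, 18 of 620 alternative values moved by more than the spread of the list score within groups, 10 of them for the macrophage markers (-0.34 to -0.05). The causes were not tested. No paired analysis was possible because the labels give no replicate numbers or litters that tie animals across groups. With 3 animals a group and dim probe sets without detection calls, differences of small size were not detectable.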
